A study of Mus musculus with 12 samples.

Results

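Zfp genes encode zinc finger proteins, most of them of the C2H2 type, in which small zinc-binding modules read DNA or RNA. Of 316 genes whose symbol in the platform annotation was Zfp followed by digits, Zfp36 left out, 172 had a mean of at least 7.5 log2 units over the 12 arrays of primary mouse microglia and are described here, out of 19938 genes tested. Each gene was read from its probe set with the highest mean. The members were thus chosen by their mean level and not by a difference between treatments, and just inside the limit lay Zfp597 (7.504), Zfp212 (7.513) and Zfp40 (7.516), just outside it Zfp654 (7.480), Zfp568 (7.480) and Zfp566 (7.476). The mean levels of the members ran up to 11.5, with a median of 8.41, and 38 of them lay at 9 or more. Among all genes tested, 9654 reached 7.5.

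The cells came from C57BL/6J pups on postnatal day 7, were taken with magnetic beads against CD11b and were cultured for 3 days. For 6 h they received 10 µM oligomeric Aβ42, the peptide that aggregates in Alzheimer's disease, or its vehicle of 0.4% DMSO, together with 100 nM AE1-329, which activates EP4, a receptor of prostaglandin E2, or its vehicle of 0.001% ethanol. The groups were Aβ42 alone, Aβ42 with AE1-329, AE1-329 alone and vehicle, with cells of 3 litters in each (n = 3 arrays per group). Arrays of equal replicate number were taken to come from the same litter, which the labels do not state. All cultures shared the strain, the age, the bead isolation and the serum-containing medium. The comparisons ask what Aβ42 did without and with the EP4 agonist, and what the agonist did without and with Aβ42.

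Many C2H2 zinc finger proteins carry a KRAB domain, which recruits the corepressor Trim28 and with it the histone methyltransferase Setdb1. KRAB zinc finger proteins are known for silencing retroelements and for keeping imprinted genes in their methylated state, and their genes often lie side by side in clusters. Other Zfp proteins act in splicing, translation or as DNA-binding activators and repressors, so the shared symbol stands for a fold and not for one function.

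All 11 measured microglia markers reached 7.5 in every group, and their mean per array ran from 10.95 to 10.99 with Aβ42 alone, from 10.80 to 10.85 with both agents and from 10.90 to 10.93 with AE1-329 alone, and was 11.04 on each vehicle array. None of the neutrophil, lymphocyte or erythroid markers reached 7.5, and 1 of 11 neuron, 4 of 10 astrocyte, 3 of 9 oligodendrocyte, 4 of 10 endothelial or mural and 5 of 8 monocyte or border macrophage markers did. The highest of these were bright: over the 12 arrays Cd36 averaged 12.6, Acta2 11.3, Mrc1 10.8, Fn1 10.4 and Pf4 10.0. The microglia markers ran from 8.2 (Aif1) to 12.8 (Tyrobp). Acta2 and Fn1 had wide standard errors of 0.31 and 0.30 for a difference between groups. The part of other cells in the results below was not tested. In bulk RNA, fewer cells of a type and less RNA per cell cannot be told apart. The replicates of vehicle differed more than those of the other groups: the median standard deviation of the members was 0.12 log2 units in vehicle, against 0.059 to 0.065 elsewhere. Vehicle replicate 1 had 20 members at least 0.3 above both other vehicle arrays, and vehicle replicate 2 had 12 as far below both others. The standard errors and p-values below rest on 1 spread per gene shared by the 4 groups. They do not take up the wider spread of vehicle separately, so those of comparisons with vehicle may be too small.

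The sequences upstream of 4 members are shown because these genes had the highest rise with Aβ42 (Zfp263), the highest rise with AE1-329 (Zfp52), a large fall with Aβ42 (Zfp30) and the highest interaction (Zfp367). They are the 250 bases before the RefSeq start in GRCm38.p6, in lower case, with capitals for the ETS motif CCGGAAG, the cyclic AMP response element (CRE) TGACGTCA and its core TGACG.
Zfp263, chr16:3743849-3744098 (+ strand): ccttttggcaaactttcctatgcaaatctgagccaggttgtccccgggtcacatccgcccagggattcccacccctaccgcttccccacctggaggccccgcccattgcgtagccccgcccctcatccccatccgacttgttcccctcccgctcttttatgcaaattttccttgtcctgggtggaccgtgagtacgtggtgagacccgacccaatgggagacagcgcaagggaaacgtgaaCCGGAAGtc
Zfp52, chr17:21535289-21535538 (+ strand): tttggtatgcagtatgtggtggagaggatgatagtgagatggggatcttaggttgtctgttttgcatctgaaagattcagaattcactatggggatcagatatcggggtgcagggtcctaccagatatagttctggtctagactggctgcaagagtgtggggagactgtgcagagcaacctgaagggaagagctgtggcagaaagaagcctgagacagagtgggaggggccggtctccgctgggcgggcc
Zfp30, chr7:29783718-29783967 (+ strand): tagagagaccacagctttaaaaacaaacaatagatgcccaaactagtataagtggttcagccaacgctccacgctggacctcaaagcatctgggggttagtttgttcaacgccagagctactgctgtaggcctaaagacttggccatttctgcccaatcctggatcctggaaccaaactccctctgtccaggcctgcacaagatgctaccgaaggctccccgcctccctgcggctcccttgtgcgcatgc
Zfp367, chr13:64152374-64152623 (- strand): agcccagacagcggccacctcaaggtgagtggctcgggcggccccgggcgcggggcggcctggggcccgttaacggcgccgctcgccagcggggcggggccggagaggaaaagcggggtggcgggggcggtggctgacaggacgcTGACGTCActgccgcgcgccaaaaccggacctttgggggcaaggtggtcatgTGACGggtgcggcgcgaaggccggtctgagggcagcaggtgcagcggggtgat
Both strands were searched for 8 motifs: CRE, its core (which every CRE contains), AP-1 (TGAGTCA), E2F (TTTCCCGC), ETS, the interferon-stimulated response element (TTTC, any 2 bases, TTTC), the TATA box (TATAAA) and the NF-kB consensus. The windows of Zfp52 and Zfp30 held none of these letters. Over 175 windows of 141 members, the CRE stood in 3.43%, against 1.55% of 32851 windows of all genes. The core stood in 30.3% of the members' windows, against 17.8% of all, and the ETS motif in 14.9%, against 6.91%. Less frequent in the members' windows were the TATA box (6.29%, against 12.4%), the NF-kB consensus (2.29%, against 3.9%), the interferon-stimulated response element (1.71%, against 2.98%) and AP-1 (4.0%, against 4.46%), while E2F stood in 1.71%, against 0.895%. The members' windows were also richer in CG pairs, with a median of 13, against 6 in all windows, and the CRE, its core, the E2F and the ETS motif each contain a CG. A match describes letters only and does not show that a factor binds.

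The lowest levels of these genes were found with Aβ42 alone. The mean over the 172 members was 8.40 to 8.41 on the 3 arrays with Aβ42 alone, against 8.49 to 8.63 on the vehicle arrays. It was 8.44 to 8.49 with both agents, against 8.56 to 8.62 with AE1-329 alone. The arrays of the first pair of groups did not overlap, and nor did those of the second, while the mean over all 9654 genes at 7.5 or more stayed between 9.31 and 9.36 on every array. For 97 members (56.4%) the lowest of the 4 group means was that of Aβ42 alone, against 36.5% of all genes at 7.5 or more.

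**Figure D1:**
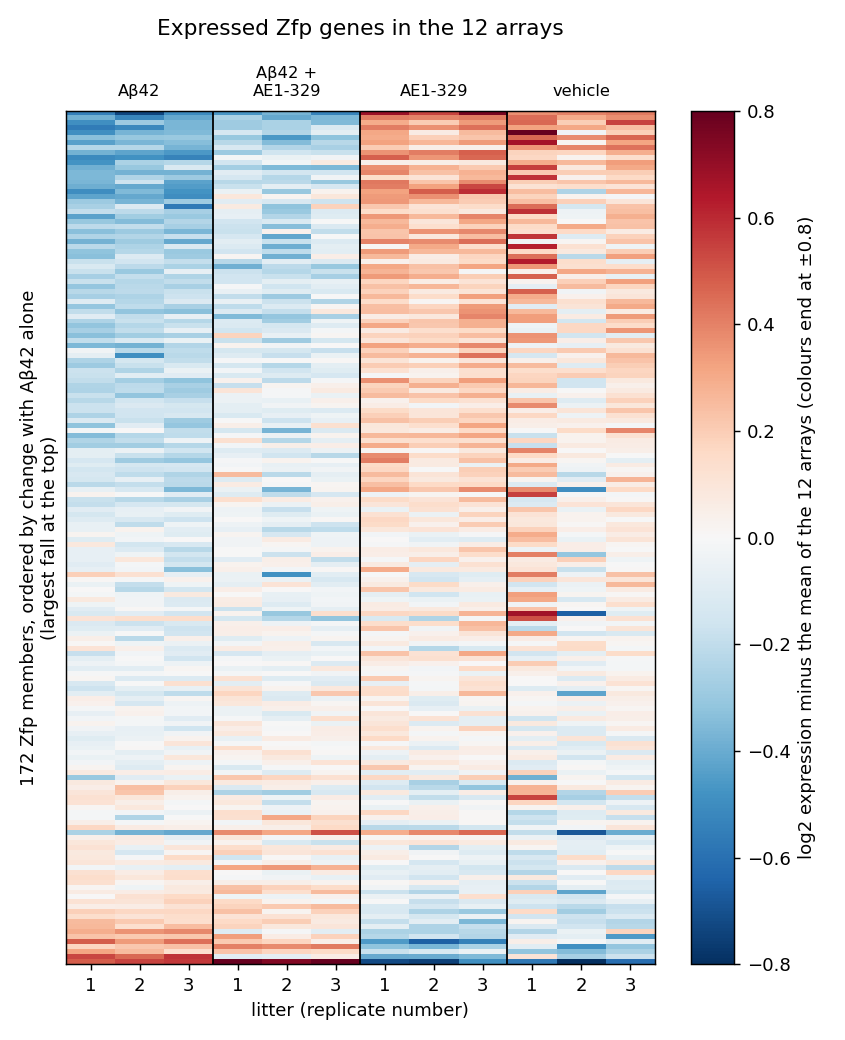
Log2 level of each of the 172 members (one line each, largest fall with Aβ42 alone at the top) on the 12 arrays, minus the gene's mean over them, with the 3 litters of each group side by side. Most lines are low (blue) with Aβ42 alone, where the mean over members was 8.40 to 8.41, and the isolated dark cells lie mainly in vehicle replicates 1 and 2.

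Aβ42 alone lowered far more of these genes than it raised. Relative to vehicle, 73 members (42.4%) passed as lower and 12 (6.98%) as higher, with limma's test at an adjusted p under 0.05 over all genes. Of all genes tested, 14.8% passed as lower and 10.7% as higher, and of those at 7.5 or more, 25.6% and 18.2%. Fitted on the arrays of these 2 groups alone, 28.5% of the members were lower and 6.98% higher, and 61 of the 85 calls were kept. The shares over all genes under that fit are not given here, so 28.5% cannot be set against 25.6%. The median change was -0.14 log2 units for the members, 0.017 for all genes and -0.031 for genes at 7.5 or more. Most changes were small: the members called lower had a median change of -0.37 (1.29-fold), 18 of them fell by 0.5 or more, and 150 of the 172 members changed by less than 0.5 in either direction. Between arrays of equal replicate number, taken as litters, the median change of the members was -0.19, -0.10 and -0.19. For all genes tested, the medians of the same pairs were 0.032, -0.045 and 0.043.

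**Figure D2:**
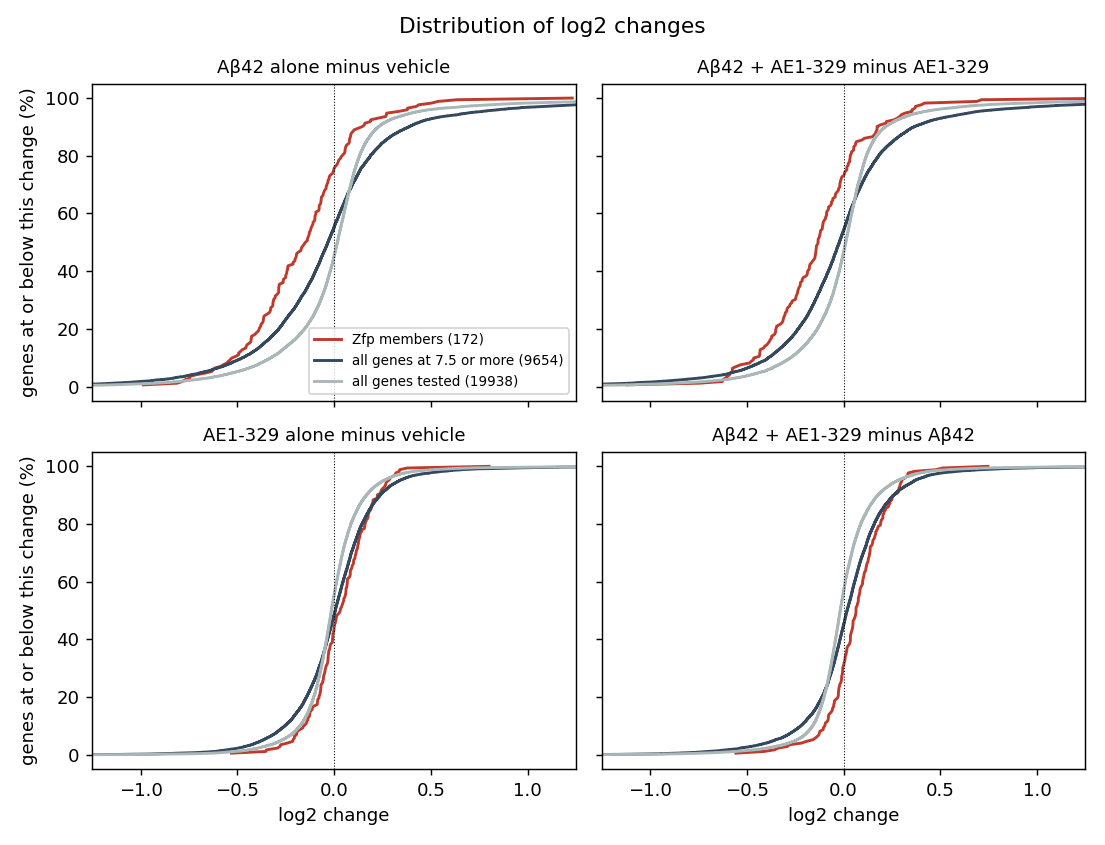
Cumulative share of genes by log2 change in the 4 comparisons, for the 172 members, all genes at 7.5 or more and all genes tested. With Aβ42 alone against vehicle the members' curve lies left of the others, with a median of -0.14.

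The 144 Zfp genes below 7.5 had 35 lower (24.3%) and 3 higher (2.08%) with Aβ42 alone, against 14.8% and 10.7% of all genes tested, whatever their level. The shares over all genes below 7.5 are not given here. Of the members, 150 had all 4 group means at 7.5 or more, and 57 of these (38%) were lower and 11 higher. The other 22 had at least 1 group mean below 7.5, with Zfp212 the member that reached 7.5 in a single group, and 16 of them were lower. A fall with Aβ42 can itself move a member from the 150 to the 22, so nothing is read from this split. Genes of related zinc finger families at 7.5 or more were described in the same way. Of 32 Zbtb genes, 11 (34.4%) were lower and 2 (6.25%) higher. Of 12 Zscan and Zkscan genes, 5 (41.7%) were lower and 1 (8.33%) higher. Of 11 Klf genes, 2 (18.2%) were lower and 3 (27.3%) higher. The shares over all genes at 7.5 or more were 25.6% and 18.2%. No test of a difference between families was made.

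**Figure D3:**
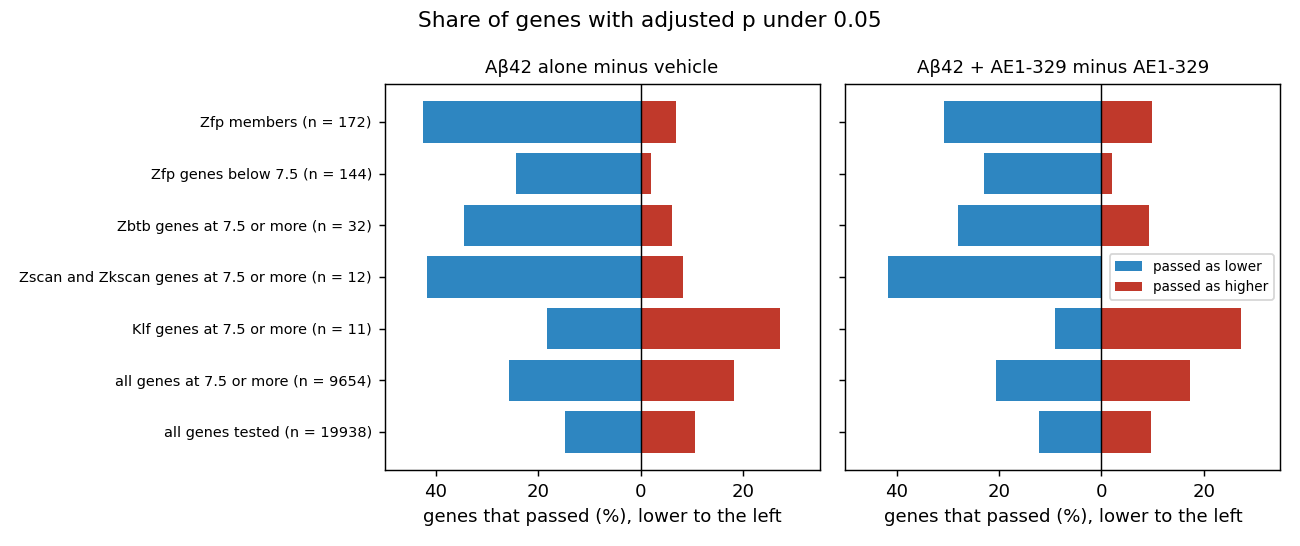
Percent of genes that passed as lower (left) and higher (right) with Aβ42 alone against vehicle and with both agents against AE1-329 alone, for the Zfp members, Zfp genes below 7.5 and related zinc finger families, beside all genes. For Aβ42 alone, 42.4% of the members were lower, against 25.6% of genes at 7.5 or more.

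Zfp395 had the largest fall among the members. Its levels were 7.69, 7.51 and 7.74 with Aβ42 alone, against 8.60, 8.64 and 8.65 in vehicle, a change of -0.99 ± 0.07 (standard error of the fit; adjusted p = 3.71e-07). With both agents they were 7.77, 7.87 and 7.70, against 8.92, 8.78 and 8.996 with AE1-329 alone (-1.12 ± 0.07, adjusted p = 1.14e-07). The arrays with and without Aβ42 did not overlap in either pair, and a second probe set of the gene also fell, by 1.02 and 1.21.

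Zfp30, a KRAB zinc finger gene linked in mouse airway to the neutrophil chemokine Cxcl1, was at 7.34, 7.20 and 7.31 with Aβ42 alone, against 8.17, 8.02 and 8.09 in vehicle (-0.81 ± 0.06, adjusted p = 3.68e-07). With both agents it was at 7.47, 7.31 and 7.36, against 8.13, 8.12 and 8.13 with AE1-329 alone. All arrays with Aβ42 thus lay below 7.5 and all without it above 8. Zfp346, whose product binds double-stranded RNA, was at 8.71, 8.74 and 8.74 with Aβ42 alone, against 9.50, 9.41 and 9.50 in vehicle (-0.74 ± 0.06, adjusted p = 4.45e-07). Zfp157, known from mammary gland development, was at 7.38, 7.43 and 7.58 with Aβ42 alone, against 8.26, 8.25 and 8.18 in vehicle (-0.77 ± 0.06). The groups did not overlap for either gene.

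Zfp810 fell by 0.78 ± 0.09, Zfp953 by 0.71 ± 0.12 and Zfp704 by 0.67 ± 0.06. Zfp946 was at 8.39, 8.51 and 8.53 with Aβ42 alone, against 9.75, 8.86 and 9.07 in vehicle. Its change of -0.75 ± 0.17 (adjusted p = 0.00425) became -0.49 without vehicle replicate 1, the highest of those arrays, and still passed.

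Zfp263 had the largest rise. This gene encodes a DNA-binding regulator of transcription. It was at 9.57, 9.63 and 9.65 with Aβ42 alone, against 8.52, 8.17 and 8.48 in vehicle (1.23 ± 0.09, 2.35-fold, adjusted p = 3.79e-07). With both agents it was at 9.96, 9.83 and 9.94, against 8.37, 8.34 and 8.60 with AE1-329 alone (1.47 ± 0.09, 2.78-fold). No array with Aβ42 overlapped one without it, and Zfp263 was the member that changed by over 1 log2 unit upward in both comparisons.

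Zfp948 was at 9.48, 9.41 and 9.53 with Aβ42 alone, against 9.06, 8.68 and 8.78 in vehicle (0.64 ± 0.08, adjusted p = 6.79e-05). Zfp871 rose by 0.54 ± 0.06, Zfp719 by 0.50 ± 0.08 and Zfp275 by 0.44 ± 0.07. Zfp593, whose human and yeast counterparts take part in assembly of the large ribosomal subunit, rose by 0.38 ± 0.08. Each of these kept its call under every alternative tried.

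**Figure D4:**
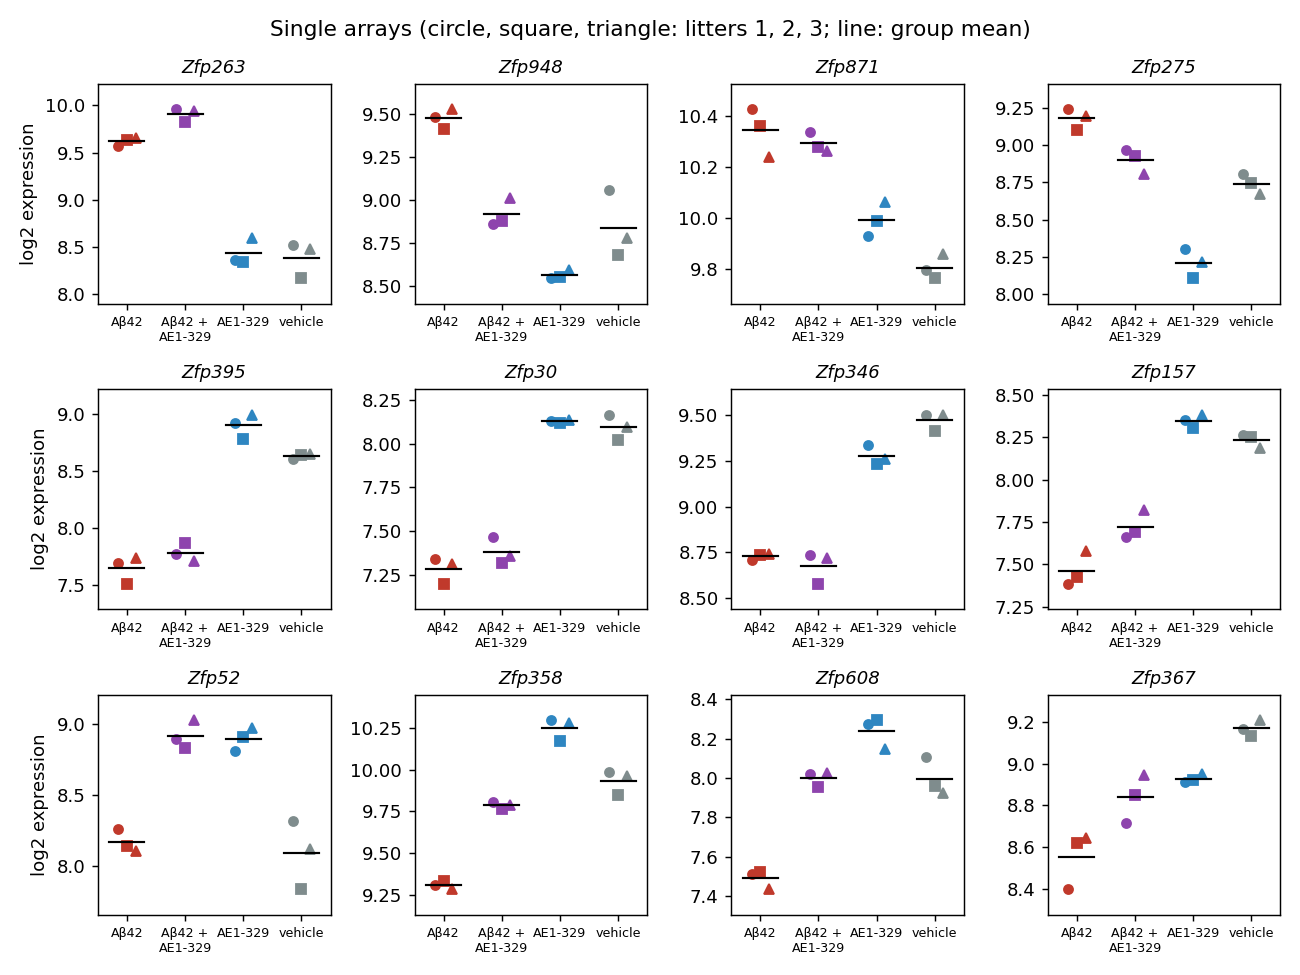
Log2 levels of 12 members on single arrays, each panel with its own axis, which does not start at 0. Circle, square and triangle stand for replicates 1, 2 and 3, taken as litters, and the line for the group mean. Zfp263 is above 9.5 on every array with Aβ42 and Zfp395 is below 8 there, while Zfp52 is above 8.8 on every array with AE1-329.

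The members were also read by known role. Among 19 members with chromatin and transcription roles, 7 (36.8%) were lower and 3 (15.8%) higher, against 42.4% and 6.98% of the members and 25.6% and 18.2% of genes at 7.5 or more. Lower were Zfp608, which represses Rag genes in developing T cells (-0.51 ± 0.06), Zfp219 (-0.34 ± 0.06), Zfp217, a partner of corepressor complexes (-0.31 ± 0.06), and 4 more, of which Zfp516, Zfp644, Zfp687 and Zfp292 each lost the call under 5 to 12 of 19 alternatives. Higher were Zfp263, Zfp827, which acts at telomeres in human cells (0.33 ± 0.08), and Zfp335 (0.23 ± 0.06, adjusted p = 0.0655 without replicate 3 of Aβ42 alone). Of 10 members with RNA, translation or protein modification roles, Zfp598, a ubiquitin ligase that acts on collided ribosomes, rose (0.27 ± 0.05), and Zfp346 and Zfp326 (-0.24, call lost under 12 of 19 alternatives) fell, which is 10% higher and 20% lower. With so few members in a list, nothing about roles is read from these counts.

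Of 5 members from the list of KRAB proteins with known retroelement or imprint targets, Zfp266 (20%) fell with Aβ42 alone (-0.43 ± 0.07), and none rose. Zfp809, which silences retroviral DNA, changed by -0.15 ± 0.06 (adjusted p = 0.0788), and Zfp445, which maintains imprints, by 0.15 ± 0.06 (adjusted p = 0.113). The corepressors that such proteins recruit were read from a list of 30 genes, 26 of them measured, of which 6 (23.1%) were lower and 3 (11.5%) higher with Aβ42 alone, against 25.6% and 18.2% of genes at 7.5 or more. The largest fall was that of Cbx3, a heterochromatin protein gene (-0.73 ± 0.12), and the largest rise that of the histone deacetylase gene Hdac1 (0.39 ± 0.10). Setdb1 fell by 0.55 ± 0.07, its partner Atf7ip by 0.43 ± 0.06 and the maintenance DNA methyltransferase Dnmt1 by 0.68 ± 0.05. Chd4, a remodeller of the NuRD complex, rose by 0.38 ± 0.05. Trim28 itself averaged 10.3 with Aβ42 alone and 10.4 in vehicle (-0.036 ± 0.14, adjusted p = 0.894).

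In the presence of AE1-329, too, Aβ42 lowered more members than it raised. Relative to AE1-329 alone, 53 members (30.8%) were lower and 17 (9.88%) higher with both agents, against 12.2% and 9.77% of all genes tested and 20.6% and 17.3% of genes at 7.5 or more. The median change was -0.13 for the members, 0.011 for all genes and -0.022 for genes at 7.5 or more. These arrays are other arrays than those of Aβ42 alone and vehicle, though taken to be from the same litters. Lower in both comparisons were 47 members, which is 64.4% of the 73 and 88.7% of the 53, and higher in both were 10, or 83.3% of the 12 and 58.8% of the 17. No member passed in opposite directions. For all genes at 7.5 or more the shares were 67.3% and 83.6% for lower and 74.6% and 78.4% for higher.

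**Figure D5:**
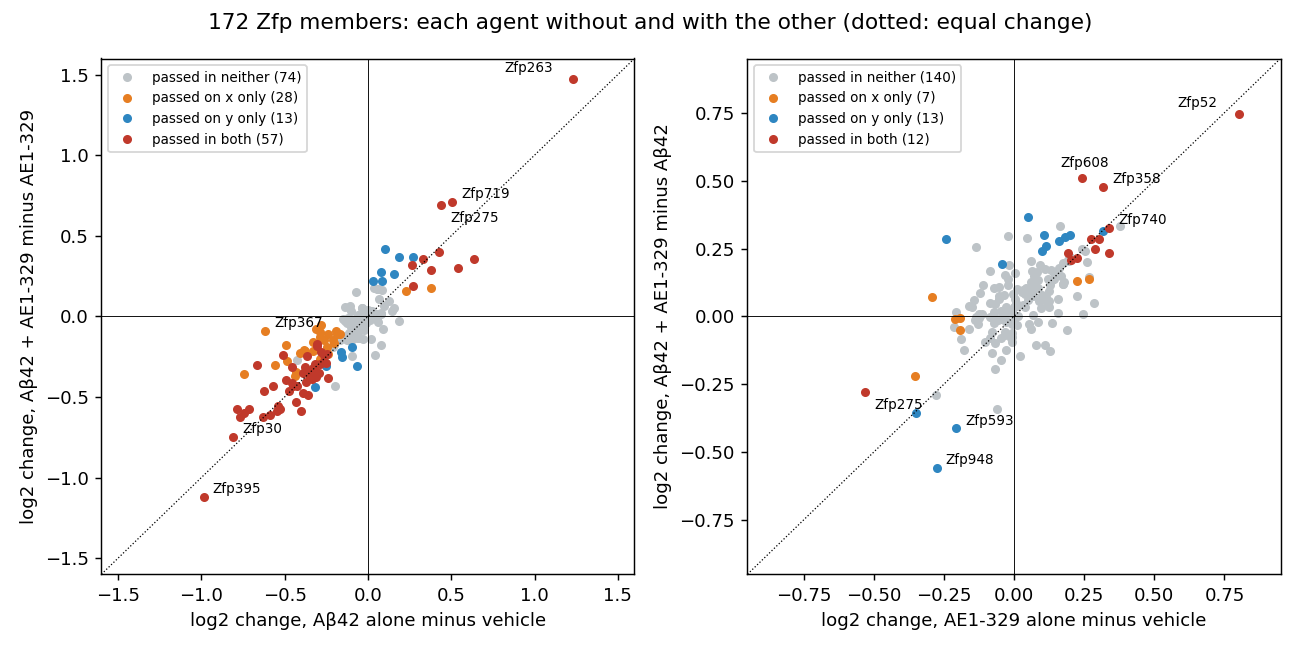
Log2 change of each member for Aβ42 without AE1-329 (x) and with it (y), and for AE1-329 without Aβ42 (x) and with it (y), coloured by which comparisons passed. Zfp263 and Zfp395 lie at the ends of the first panel and Zfp52 at the end of the second.

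Adding AE1-329 to Aβ42 raised more members than it lowered. Relative to Aβ42 alone, 21 members (12.2%) were higher and 4 (2.33%) lower with both agents, against 5.99% and 5.04% of all genes tested and 11.1% and 8.75% of genes at 7.5 or more. The share of members called higher was thus close to that of genes at 7.5 or more. The median change was 0.064 for the members, -0.018 for all genes and 0.018 for genes at 7.5 or more.

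Zfp52 responded most to the agonist. It was at 8.89, 8.83 and 9.03 with both agents, against 8.26, 8.14 and 8.11 with Aβ42 alone (0.75 ± 0.10, adjusted p = 0.000368). With AE1-329 alone it was at 8.81, 8.90 and 8.97, against 8.32, 7.84 and 8.12 in vehicle (0.80 ± 0.10, adjusted p = 0.000232). Arrays with the agonist lay above all arrays without it, and the change with Aβ42 alone did not pass (0.08 ± 0.10, adjusted p = 0.654).

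Zfp608 was at 8.02, 7.96 and 8.02 with both agents, against 7.51, 7.52 and 7.43 with Aβ42 alone (0.51 ± 0.06, adjusted p = 0.000141), and at 8.11, 7.96 and 7.92 in vehicle. Zfp358 was at 9.80, 9.76 and 9.79 with both agents, against 9.31, 9.33 and 9.28 with Aβ42 alone (0.48 ± 0.06, adjusted p = 8.4e-05). Both had fallen with Aβ42 alone, Zfp608 by 0.51 ± 0.06 and Zfp358 by 0.62 ± 0.06, in a comparison that uses the same Aβ42 arrays. Zfp740 rose by 0.33 ± 0.06 with both agents relative to Aβ42 alone, and Zfp362 by 0.30 ± 0.06.

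The 4 members lower with both agents than with Aβ42 alone were Zfp948 (-0.56 ± 0.08), Zfp593 (-0.41 ± 0.08), Zfp146 (-0.36 ± 0.10) and Zfp275 (-0.28 ± 0.07). Zfp948 was at 8.87, 8.88 and 9.01 with both agents, against 9.48, 9.41 and 9.53 with Aβ42 alone, without overlap. The call of Zfp146 was lost when any one array of the 3 groups that received an agent was left out. That of Zfp275 was lost without replicate 3 of both agents or without replicate 1 or 3 of Aβ42 alone (adjusted p = 0.0661 to 0.0905).

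AE1-329 alone changed few members. Relative to vehicle, 13 (7.56%) were higher and 6 (3.49%) lower, against 4.71% and 5.45% of all genes tested and 8.56% and 9.95% of genes at 7.5 or more, with a median change of 0.032 for the members, -0.014 for all genes and 0.006 for genes at 7.5 or more. Fitted on the arrays of these 2 groups alone, 4 of the 19 calls were kept, and those of Zfp266 (adjusted p = 0.0571), Zfp688 (adjusted p = 0.0532), Zfp330 and Zfp704 were among the lost. With the litter as a replicate block, 11 members (6.4%) were lower. Under that fit 1312 of 19938 genes tested and 1139 of 9654 genes at 7.5 or more were lower. After Zfp52, the highest rises were those of Zfp740 (0.34 ± 0.06), Zfp266 (0.34 ± 0.07), Zfp358 (0.32 ± 0.06) and Zfp688 (0.30 ± 0.06). Zfp275 was at 8.30, 8.11 and 8.22 with AE1-329 alone, against 8.81, 8.74 and 8.67 in vehicle (-0.53 ± 0.07, adjusted p = 0.000245), the largest fall, without overlap. Zfp330, a nucleolar protein gene, changed by -0.35 ± 0.08, and its call was lost without replicate 3 of AE1-329 alone. Zfp704 changed by -0.29 ± 0.06, and its call was lost without replicate 2 of that group. Zfp639, Zfp346 and Zfp592 fell by 0.21, 0.19 and 0.19, and each lost its call under 10 to 13 of 19 alternatives.

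Between the agonist's 2 comparisons, which share no array, 11 members were higher in both, or 84.6% of the 13 and 52.4% of the 21, against 61.3% and 47.2% for all genes at 7.5 or more. Zfp275 was the member lower in both, or 16.7% of the 6 and 25% of the 4, against 50.3% and 57.2% for all genes at 7.5 or more.

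The interaction asks whether the change with Aβ42 differed with and without AE1-329. It passed for 2 members (1.16%), both positive, and for no member in the negative direction, against 1.03% and 0.918% of all genes tested and 1.96% and 1.56% of genes at 7.5 or more. An unadjusted p under 0.05 was found for 13 members (7.56%), against 10.4% of all genes tested and 16.1% of genes at 7.5 or more. Zfp367 was at 8.40, 8.62 and 8.64 with Aβ42 alone, against 9.17, 9.13 and 9.21 in vehicle, and at 8.72, 8.85 and 8.95 with both agents, against 8.91, 8.92 and 8.95 with AE1-329 alone. Its fall of 0.62 ± 0.07 with Aβ42 alone compared with -0.09 ± 0.07 in the presence of AE1-329, an interaction of 0.53 ± 0.10 (adjusted p = 0.0189). Its upstream window, shown above, is the one of the 4 printed that holds a whole CRE, and a second RefSeq window of the gene holds the core alone. A link between these letters and the interaction was not tested. Zfp503, known as Nolz1 from the developing striatum, was at 8.05, 8.08 and 8.01 with both agents, against 7.63, 7.66 and 7.59 with AE1-329 alone, and at 7.71, 7.67 and 7.65 with Aβ42 alone, against 7.59, 7.62 and 7.52 in vehicle (interaction 0.32 ± 0.07, adjusted p = 0.0368). All 3 arrays with both agents lay above the other 9. The call of Zfp367 was lost without replicate 2 or 3 of both agents or replicate 1 or 2 of AE1-329 alone (adjusted p = 0.0532 to 0.0565, with all probe sets in the adjustment included), and that of Zfp503 under 12 of 18 alternatives.

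The members were also read by their place in the genome. In the RefSeq order of protein-coding genes 82 members lay in runs of 2 or more adjacent Zfp genes and 90 stood alone. A neighbour with any other symbol ended a run, even if it is a zinc finger gene. A member that stood alone may thus still lie in a zinc finger cluster. With Aβ42 alone, 35 of the 82 (42.7%) and 38 of the 90 (42.2%) were lower. The longest run, from Zfp84 to Zfp146, held 15 genes, of which 6 were members and 3 of these lower. Neighbours could also differ: Zfp51, Zfp53, Zfp52 and Zfp948 belong to 1 run, and with AE1-329 alone they changed by 0.29 ± 0.18, 0.01 ± 0.07, 0.80 ± 0.10 and -0.28 ± 0.08, of which that of Zfp52 passed. Related genes of a run can share probe sequence, and the probe sets with several symbols that hold a Zfp gene, 39 in number, were not used.

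The members with the highest means were Zfp706, Zfp207, which acts in mitosis, Zfp281, a regulator known from pluripotent cells, Zfp384 and Zfp106. Of these, Zfp106 passed in 2 comparisons, with AE1-329 alone against vehicle (0.22 ± 0.05) and with both agents against AE1-329 alone (-0.19 ± 0.05). Both calls were lost without replicate 3 of AE1-329 alone. The first was also lost with only the arrays compared, and the second without replicate 2 or 3 of both agents. Zfp281 was at 11.02, 10.99 and 10.92 with Aβ42 alone, against 11.44, 10.63 and 10.71 in vehicle, where replicate 1 stood apart. Over the 4 comparisons between groups, 103 members (59.9%) passed in at least 1, against 33.6% of all genes tested and 56.1% of genes at 7.5 or more.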

How the data were processed

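RNA of 12 cultures was hybridised to Affymetrix Mouse Gene 1.0 ST arrays. The authors deposited log2 values for every probe set and array. Per the submitters' processing notes RMA and Partek 6.5 were used, for steps not given in the sources used here. The log2 scale was inferred from the range of the values, 2.79 to 13.95. RMA usually aligns arrays, so changes are relative to the bulk of genes. Signal over background is not known, and precision is limited by the small number of arrays.

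Of 35556 probe sets, 21789 had 1 gene symbol, and the one with the highest mean was kept per gene (19938 genes). A limma 3.58.1 model of the 4 group means over all arrays was fitted in R 4.3.3 (lmFit, eBayes, 8 residual and 4.54 prior degrees of freedom), with two-sided p adjusted by Benjamini-Hochberg over all genes of a comparison. The code was tested on simulated data. The members, gene lists and alternatives were chosen with earlier results of these data known. Named were, per comparison, up to 8 members with the highest and 8 with the lowest change, if they passed and the groups did not overlap (overlap allowed for the interaction), members of 3 role lists, the 5 highest means, genes next to the limit and 4 corepressor genes. The text names a part of them. Trim28, Cbx3, Hdac1, Zfp51, Zfp53 and Zfp84 stand outside that rule and were named after their values were seen.

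The design text ties replicates to 3 litters, so arrays of equal number were taken to share a litter. The reported fit, standard errors and p-values do not use this pairing, which enters only as an alternative. Residuals of such arrays around their group means had a mean Pearson r of 0.326 (18 pairs, 0.00435 to 0.538, 17 above 0.1). Alternatives were the litter as a replicate block, only the arrays compared, another quantile normalization, another variance prior, other filters, probe set rules and levels, and leaving out each array. A planned split by protein structure was not run, and Zfp143, Zfp91, Zfp932 and Zfp429 were not analysed here.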

Additional observations from a re-analysis of the deposited data

Results flagged for a closer look

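The change with Aβ42 differed with and without AE1-329 for 2 members, by limma's interaction term. For Zfp367 the interaction was 0.53 ± 0.10 log2 units (adjusted p = 0.0189), and for Zfp503 it was 0.32 ± 0.07 (adjusted p = 0.0368). These are 1.16% of the members, against 1.03% of all genes tested and 1.96% of genes at 7.5 or more with a positive interaction. The call was lost under 5 of 18 alternatives for Zfp367 and under 12 of 18 for Zfp503.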

How the results depend on the processing

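The shares of members called with Aβ42 alone against vehicle stayed within 1.5 times of those given under every alternative run. When single arrays were left out, 31.4% to 42.4% were lower and 6.4% to 9.3% higher. With only the arrays compared, 28.5% were lower and 61 of the 85 calls in either direction were kept. With all probe sets, 33.1% were lower. Shares over all genes under the alternatives are not given in this section, so its figures describe the members only. In the comparisons without vehicle, fits on only the arrays compared kept 70 of 70 calls (against AE1-329 alone) and 24 of 25 (against Aβ42 alone). No named result that passed changed direction. Of 87 named results that passed, 54 did so under all alternatives. For AE1-329 alone against vehicle, the share called lower was 6.4% with the litter as a replicate block, 0.581% with only the arrays compared, 5.81% after quantile normalization and also with genes at 7.5 or more only, 1.74% with all probe sets and 5.31% at a mean of 8 or more. The share called higher there was 1.74% with only the arrays compared and 4.65% with all probe sets. For both agents against Aβ42 alone, the share called lower was 4.07% with only the arrays compared and 3.54% at a mean of 8 or more, and the share called higher 7.56% with all probe sets. The median for both agents against AE1-329 alone was -0.111 after quantile normalization and -0.094 at a mean of 8 or more. The interaction passed upward for 0.581% of members with the other variance prior and for 0 with all probe sets.

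The following alternatives were chosen after seeing the data. Among members with 4 group means at 7.5 or more, the median for both agents against AE1-329 alone was -0.114. Outside runs of adjacent Zfp genes it was -0.093, the share lower with both agents than with Aβ42 alone was 1.11%, the share lower with AE1-329 alone 5.56% and the interaction upward 2.22%.

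Leaving out single arrays gave 5.81% (without replicate 3 of both agents) to 16.3% (without vehicle replicate 1) higher and 1.16% to 3.49% lower for both agents against Aβ42 alone, and medians of -0.144 to -0.108 for both agents against AE1-329 alone. For AE1-329 alone against vehicle it gave 3.49% (without its replicate 1) to 8.14% higher, 1.16% (without its replicate 2) to 5.23% lower and medians of 0.005 (without vehicle replicate 2) to 0.074 (without vehicle replicate 1). The interaction ranged from 0 to 1.16% upward and from 0 to 0.581% downward. The causes were not tested. Signal over background, unknown here, limits what can be said of dim genes.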
